A study of Mus musculus with 6 samples.

Results

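The genes described here encode replacement histone variants, the histones that cells can make outside DNA replication from ordinary polyadenylated messages. They were chosen by name, as the rows of the deposited expression table named H2afz, H2afx, H2afy, H2afv, H3f3a, H3f3b and H1f0. All 7 were found among 28660 identifiers, and all 7 passed the filter on low values, a mean of both fractions of at least 0.5 FPKM (fragments scaled to the length of the transcript and the size of the library). The values come from nuclei of HL-1 cells, an immortalised mouse atrial cardiomyocyte line that divides in culture and stands for a single line rather than for heart tissue. Both groups are the same untreated cells, grown in Claycomb medium with serum, glutamine and norepinephrine. They differ in the nuclear fraction: the chromatin pellet extract, which holds RNA that stays with chromatin, and the soluble nuclear extract. Each fraction had 3 libraries, 6 in all, but the table gives 1 pooled value per fraction. The spread between replicates and the library depths are therefore unknown, and no p-value was computed for any gene.

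Most histone protein is made in S phase from replication-dependent genes, whose messages lack introns and end in a stem-loop in place of a poly(A) tail. Replacement variants are built into nucleosomes at other times and give chromatin local properties: H2A.Z flanks transcription start sites, H2A.X is phosphorylated beside DNA breaks, macroH2A marks repressed chromatin, and H3.3 replaces H3 where nucleosomes turn over. H1.0 is a linker histone that accumulates as cells stop dividing. In the heart, where muscle cells leave the cell cycle after birth, H3.3 accumulates in place of the replication-dependent H3 proteins. The comparison asks how far the messages of these genes are found with chromatin and how far in the soluble part of the nucleus.

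H2afz and H2afv encode nearly the same H2A.Z protein, and H3f3a and H3f3b encode the same H3.3 protein, so within each pair separate genes supply a like protein from promoters of their own. To show how those promoters differ, the 250 bases before the start of these 4 genes are printed from RefSeq (GRCm38.p6, the same build as mm10), in the direction of the gene. Capitals mark the CCAAT box core, read as CCAAT or, on the other strand, ATTGG, and the TATA box core, read as TATAAA or TTTATA. The windows are chr11:116024505-116024754 (minus strand) for H3f3b, chr1:180813606-180813855 (minus strand) for H3f3a, chr3:137864237-137864486 (plus strand) for H2afz and chr11:6444444-6444693 (minus strand) for H2afv.
H3f3b: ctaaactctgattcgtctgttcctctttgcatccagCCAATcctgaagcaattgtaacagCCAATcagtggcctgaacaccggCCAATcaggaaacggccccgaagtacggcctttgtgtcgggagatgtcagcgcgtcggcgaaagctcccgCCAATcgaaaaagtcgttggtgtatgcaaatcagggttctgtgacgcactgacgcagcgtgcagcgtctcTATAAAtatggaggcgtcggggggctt
H3f3a: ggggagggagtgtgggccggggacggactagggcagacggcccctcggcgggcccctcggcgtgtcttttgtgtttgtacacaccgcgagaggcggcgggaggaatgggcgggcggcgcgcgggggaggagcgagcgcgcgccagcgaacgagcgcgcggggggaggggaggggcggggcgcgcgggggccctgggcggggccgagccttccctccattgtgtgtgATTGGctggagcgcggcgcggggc
H2afz: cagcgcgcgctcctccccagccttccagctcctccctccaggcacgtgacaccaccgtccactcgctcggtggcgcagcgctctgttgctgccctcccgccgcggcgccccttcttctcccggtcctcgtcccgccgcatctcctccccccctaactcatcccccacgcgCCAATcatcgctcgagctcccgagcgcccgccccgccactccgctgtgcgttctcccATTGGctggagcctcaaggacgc
H2afv: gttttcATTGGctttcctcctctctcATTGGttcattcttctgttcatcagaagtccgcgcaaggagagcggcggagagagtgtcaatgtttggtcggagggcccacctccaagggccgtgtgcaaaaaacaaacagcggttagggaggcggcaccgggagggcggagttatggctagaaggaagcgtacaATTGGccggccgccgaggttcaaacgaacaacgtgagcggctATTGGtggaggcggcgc

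The H3.3 genes had different upstream sequence. H3f3b held 4 CCAAT cores and 1 TATAAA, which begins at position -27 from the start, and its window had 54.0% G and C. H3f3a held 1 CCAAT core at position -24, no TATAAA, and 77.2% G and C. The H3f3b window lies inside the gene's own RefSeq span, which reaches further upstream. The H2afv window lies partly inside its gene's RefSeq span, whose upstream end is 6444511. The CCAAT cores of H2afv at -59 and -17 are in that part. The H2afy window also lies partly inside its gene's RefSeq span. Of the H2A.Z genes, H2afz held 2 CCAAT cores, at positions -80 and -23, and H2afv held 4. H2afy and H1f0 held neither motif, and no H2afx window was printed. Of all 32851 promoter windows of 250 bases, 33.8% held at least 1 CCAAT core, 0.84% held 4 or more and 12.4% held a TATAAA. The median G and C content of all windows was 52.4%, close to that of H3f3b. H2afz had 71.2%, H2afv 57.2%, H2afy 74.8% and H1f0 74.4%. A match describes the letters and is not a measured binding site.

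The 7 messages ranged from 32.8 to 1079 soluble FPKM, 32.9-fold from lowest to highest, and from 14.8 to 120.3 FPKM in the pellet, 8.13-fold. H2afx and H2afz were the highest in both fractions, and H2afy was the lowest in both. Levels are compared between genes per length, as FPKM. In the plot of both fractions all 7 genes lie in the upper range of protein-coding loci: even H2afy, at the bottom, was above 76.9% of the 11397 tested protein-coding loci in the soluble fraction and above 84.2% of them in the pellet. The cells were measured in bulk, so fewer cells with a message and less message per cell cannot be told apart.

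**Figure D1:**
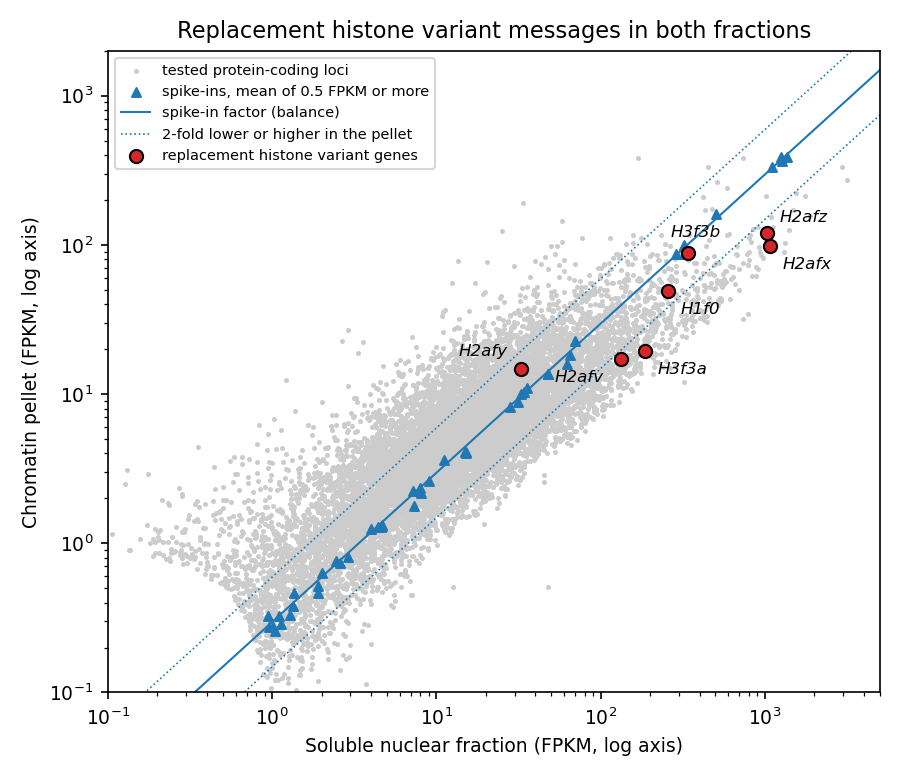
Soluble FPKM (x, log axis) against chromatin pellet FPKM (y, log axis) for the replacement histone variant genes (red), tested protein-coding loci above 0.1 FPKM in both fractions (grey) and spike-ins (blue triangles); the solid line is the spike-in factor and the dotted lines lie 2-fold to either side. H2afx, H2afz, H3f3a and H2afv lie below the lower dotted line, H3f3b lies among the spike-ins, and H2afy lies above the solid line.

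Folds are given as the log2 of pellet over soluble on the spike-in scale, on which pellet FPKM is multiplied by 3.37. That factor was fitted by least squares to bring the ERCC spike-ins (synthetic RNAs added to each fraction) to equality, so the most abundant weigh most. On the FPKM scale, without that factor, every log2 value is lower by 1.75. The 47 spike-ins that passed the same level filter had a median factor of 3.50. Their log2 folds scattered about their own mean with an SD of 0.12. The 9 within the range of these genes' mean FPKM also had an SD of 0.12 (log2 units). This scatter is technical and does not cover the cells or the fractionation.

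Messages of replacement variants lay towards the soluble fraction, but unequally. Of the 7 genes, 4 were at least 2-fold lower in the pellet (H2afx, H3f3a, H2afz and H2afv), 0 were at least 2-fold higher, and H1f0, H3f3b and H2afy were within 2-fold. Among all tested loci 10.5% were at least 2-fold lower and 31.9% at least 2-fold higher, and among tested protein-coding loci 10.6% and 24.0%. The members' median log2 fold was -1.19, beside 0.41 over all 13917 tested loci and 0.26 over protein-coding loci. On the FPKM scale all 7 were at least 2-fold lower, with a median of -2.95, where 61.2% of all tested loci were lower and 9.66% higher. There the median of all tested loci was -1.34. From H2afx to H2afy the log2 folds spanned 2.31, a 4.97-fold difference, and the order of the genes is the same on both scales because the factor is common to all.

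**Figure D2:**
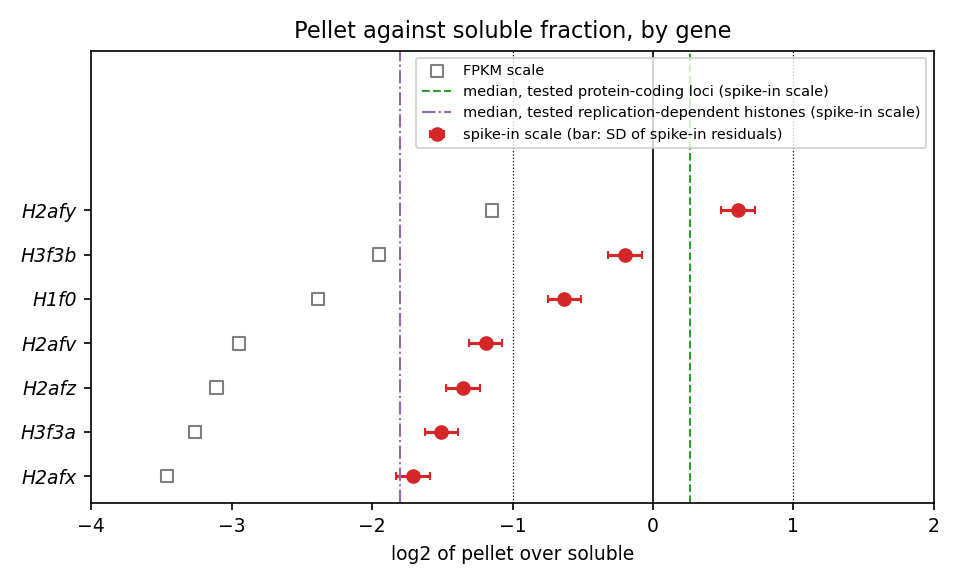
Log2 of pellet over soluble (x) for each gene (y) on the spike-in scale (red; bars are the SD of the spike-in residuals, 0.12) and on the FPKM scale (open squares), with the medians of tested protein-coding loci (0.26) and of tested replication-dependent histone genes (-1.80). H2afx lies nearest to the replication-dependent median, and H2afy is the single gene above 0 on the spike-in scale and is below 0 on the FPKM scale.

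Among the H2A variants, H2afx (H2A.X, the histone phosphorylated at DNA breaks; chromosome 9, 44334694 to 44336077 in mm10) had 1079 soluble and 98.0 pellet FPKM. Its log2 fold of -1.71, 3.27-fold lower in the pellet, was the lowest of the 7, and 23.4% of its scaled signal was in the pellet. The soluble level was exceeded by 11 of the 11397 tested protein-coding loci, and the fold was lower than in all but 1.70% of them. H2afx is known to yield both a stem-loop message and a longer polyadenylated one, and the table holds 1 value for both forms.

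H2afz (H2A.Z, chromosome 3, 137864487 to 137866922) had 1036 soluble and 120.3 pellet FPKM, giving a log2 fold of -1.35. Its soluble level was 1.04-fold below that of H2afx, and no error is known for a difference in level between genes. In the pellet the order was reversed, with H2afz 1.23-fold higher. H2afv (the other H2A.Z gene, chromosome 11, 6427229 to 6444443) had 132.6 soluble and 17.2 pellet FPKM, giving a log2 fold of -1.19. The H2A.Z genes thus differed in level and hardly in fold. H2afz exceeded H2afv by 7.81-fold among soluble RNA and by 6.99-fold among pellet RNA, and made up 88.7% of their summed soluble FPKM and 87.5% of their summed pellet FPKM. The difference of their log2 folds, -0.16, was no larger than the SD of a difference of 2 spike-ins, 0.17.

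H2afy (macroH2A1, an H2A with a large added domain that marks repressed chromatin) went the other way on the spike-in scale. The listed H2afy locus, chromosome 13, 56002265 to 56136361, is wider than the RefSeq gene, 56073622 to 56135626. Its values were 32.8 soluble and 14.8 pellet FPKM, for a log2 fold of 0.61, so that 60.4% of its scaled signal was in the pellet. This is 1.52-fold higher in the pellet, short of 2-fold, and turns to -1.15 on the FPKM scale. H2afy lay 0.80 above H3f3b, the widest gap between neighbours in the order of folds. Its fold was above that of 63.2% of tested protein-coding loci on either scale.

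The H3.3 genes, unlike the H2A.Z genes, differed in fold. H3f3a (chromosome 1, 180800832 to 180816859) had 185.7 soluble and 19.4 pellet FPKM, giving a log2 fold of -1.51. H3f3b (chromosome 11, 116021912 to 116027962) had 338.8 soluble and 87.6 pellet FPKM. Its log2 fold was -0.20, near the spike-in factor, and -1.95 on the FPKM scale. The log2 folds differed by 1.31, which no common scaling changes and which is 7.74 times the SD of a difference of 2 spike-ins. H3f3b exceeded H3f3a by 1.82-fold among soluble RNA and by 4.52-fold among pellet RNA. H3f3b thus made up 64.6% of the summed soluble FPKM of the pair and 81.9% of their summed pellet FPKM. Fragments misassigned between similar copies could move these shares and both folds, and the SD of the spike-ins does not cover that. Without replicate values the difference of the folds is not set against the spread between cultures.

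H1f0 (H1.0, the linker histone of differentiated cells; chromosome 15, 79026456 to 79030498) had 256.4 soluble and 49.1 pellet FPKM. Its log2 fold of -0.63 is 1.55-fold lower in the pellet, within 2-fold, and 39.3% of its scaled signal was in the pellet. It lay between H2afv and H3f3b, with gaps of 0.56 and 0.43 to them.

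Replacement variants took different shares of the messages of each histone family, summed over the listed genes of the family. Fragments misassigned between similar copies could move the share of a gene within a family. They could also move the family's sum, since FPKM is scaled to transcript length and some copies, such as H3f3a-ps1, are outside the sum. Of the summed H2A messages, the 4 H2A variant genes made up 64.0% of the soluble sum and 68.4% of the pellet sum. H2afx alone was 30.3% of the soluble and 26.8% of the pellet sum, and H2afz was 29.1% and 32.9%. H2afy was 0.92% of the soluble sum and 4.04% of the pellet sum. Of the summed H3 messages, with the centromeric variant gene Cenpa counted in, the H3.3 genes made up 28.3% of the soluble sum and 43.8% of the pellet sum. Between these fractions the share of H3f3b went from 18.3% to 35.9% and that of H3f3a from 10.0% to 7.94%. Without Cenpa the H3.3 genes made up 30.1% and 50.5%, and H3f3b 19.4% and 41.3%. H1f0 was 13.4% of soluble H1 messages and 18.4% of those in the pellet. The shares do not depend on the spike-in factor. For transcripts as short as the replication-dependent histones, FPKM is sensitive to how the length was corrected for fragment size, in either fraction.

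**Figure D3:**
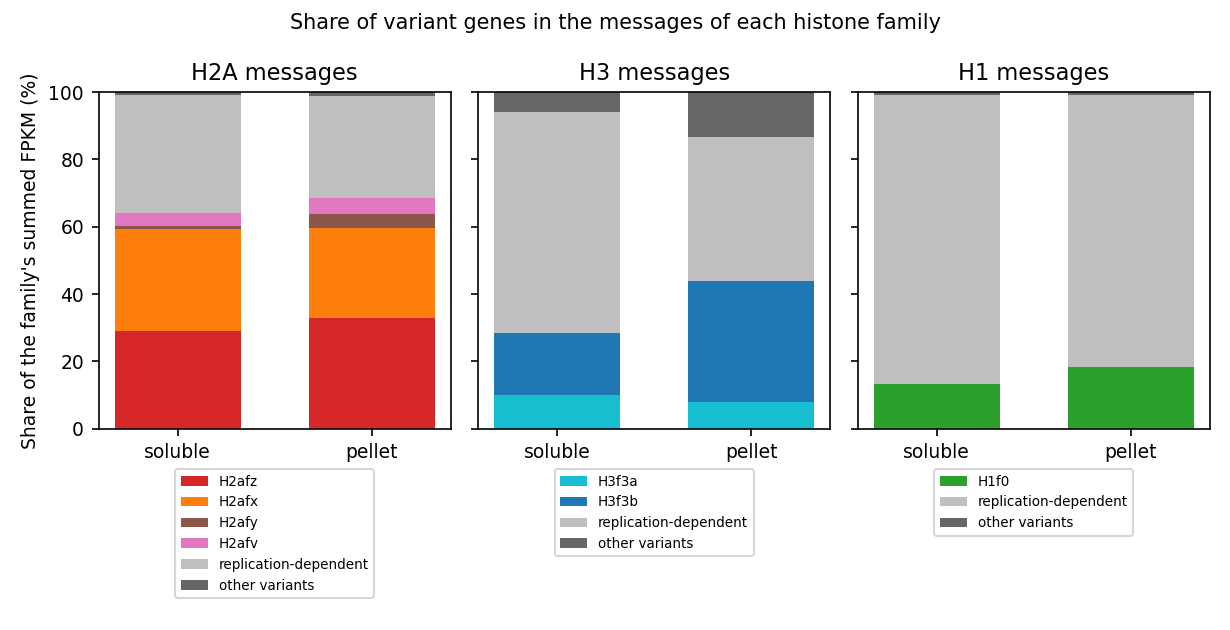
Share of each histone family's summed FPKM (y, percent) in the soluble fraction and the pellet, by gene for the replacement variants and summed for replication-dependent genes and other variants. H3f3b is 18.3% of H3 messages among soluble RNA and 35.9% in the pellet, while the H2A variants hold 64.0% and 68.4% of H2A messages.

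The replication-dependent histone genes, the S-phase source of the same histone families, lay further towards the soluble fraction. Of 60 listed, 45 passed the level filter, and of these 42 (93.3%) were at least 2-fold lower in the pellet and 1 was at least 2-fold higher. The shares over all tested loci were 10.5% lower and 31.9% higher. Their median was -1.80, with quartiles at -1.90 and -1.50, or -3.55 on the FPKM scale. H2afx fell inside their interquartile range, with 26 of the 45 lower and 19 higher in fold. H3f3a, at -1.51, was just inside it, with 32 lower and 13 higher. H2afz had 39 of them below it and H2afv 40, while H1f0 and H3f3b each had 42 and H2afy 43. Hist2h2aa2, an H2A gene with near-identical copies, had -4.67 (2.25 FPKM soluble), and Hist1h4b, an H4 gene, had -2.48. Hist1h2ad, an H2A gene and the 1 that was higher, had 2.21 at 0.423 soluble and 0.579 pellet FPKM. Its soluble value is under the 0.5 FPKM of the level filter, so it passed only through its pellet value. No test of the difference between replacement and replication-dependent genes was possible with pooled values.

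Variant genes outside the 7 were few. Of 11 on a list of further variants, 9 were listed in the table and 4 passed the level filter. Of these, 2 were at least 2-fold lower and 0 higher, beside 10.5% and 31.9% of all tested loci, and their median was -0.97. H1fx, a linker histone, had 19.6 soluble FPKM and -1.44 in log2 fold, and H2afj, an H2A variant, had 17.2 soluble FPKM and -1.10. H2afy2, the gene of macroH2A2, had 9.27 FPKM in the soluble fraction and a log2 fold of -0.84, against 0.61 for H2afy. Cenpa, the H3 variant of centromeres, had 106.9 FPKM and was balanced at 0.03. The processed pseudogenes H3f3c (0.257 FPKM soluble) and H3f3a-ps1 (0.0573) were far below H3f3a and H3f3b.

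Lists of genes that deposit, exchange or read the variants are given beside all tested loci, whose median was 0.41 and of which 31.9% were higher and 10.5% lower. The tested genes of these lists are all protein-coding, and over tested protein-coding loci the median was 0.26, with 24.0% higher and 10.6% lower. The counts of the H3.3 deposition and H2A.Z exchange lists were near the shares of all tested loci. Their percent higher was somewhat above that of protein-coding loci. Of 9 genes of H3.3 deposition, 3 (33.3%) had at least 2-fold more pellet signal and 1 (11.1%) had at least 2-fold less. Their median was 0.62. Ubn2, a subunit of the HIRA complex, had 2.86 (6.10 soluble and 13.2 pellet FPKM), and Atrx, the remodeller that places H3.3 at repeats with Daxx, had 2.28 (77.1 and 111.4 FPKM). Asf1b, a chaperone of H3 and H4, had -1.04. Hira itself, within 2-fold, had 24.6 soluble and 13.2 pellet FPKM and a log2 fold of 0.85.

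Of 20 genes of H2A.Z exchange, 6 (30.0%) were higher and 2 (10.0%) lower, and the median was 0.34. Brd8, a bromodomain subunit of the exchange machinery, had 2.22, and Ino80, a remodelling ATPase, had 1.98. Anp32e, the chaperone that removes H2A.Z, had -1.09 (158.3 soluble and 22.1 pellet FPKM), and Znhit1, a small subunit of the SRCAP complex, had -1.30. The SRCAP ATPase gene itself, Srcap, had 42.5 soluble and 30.6 pellet FPKM and a log2 fold of 1.28. Of 16 genes for phosphorylating or reading H2A.X, 13 passed the filter, 7 (53.8%) were higher and 0 lower, and the median was 1.05. Atr, a kinase of the DNA damage response, had 1.76, and Brca1, a repair factor at breaks, had 2.09.

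General histone chaperones were mostly within 2-fold, with 0 of 11 higher, 1 lower and -0.42 as their median. The 1 lower was Set (35.3 soluble and 5.23 pellet FPKM), on the edge of 2-fold. Of the 13 tested genes on the list for making or processing stem-loop histone messages, 2 were higher and 1 lower, around a median of -0.00431. Npat, an activator of replication-dependent histone genes, had 1.45, Casp8ap2 had 1.26, and Ncbp2, of the nuclear cap-binding complex, had -1.02. Slbp, which binds the stem-loop, had 123.4 soluble and 36.5 pellet FPKM. On the FPKM scale the medians of H3.3 deposition, H2A.Z exchange and H2A.X genes turn to -1.13, -1.42 and -0.71, with 1, 0 and 0 genes at least 2-fold higher and 5, 13 and 3 lower, where 9.66% of all tested loci were higher and 61.2% lower. The medians of general chaperones and stem-loop processing were -2.18 and -1.76 there.

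**Figure D4:**
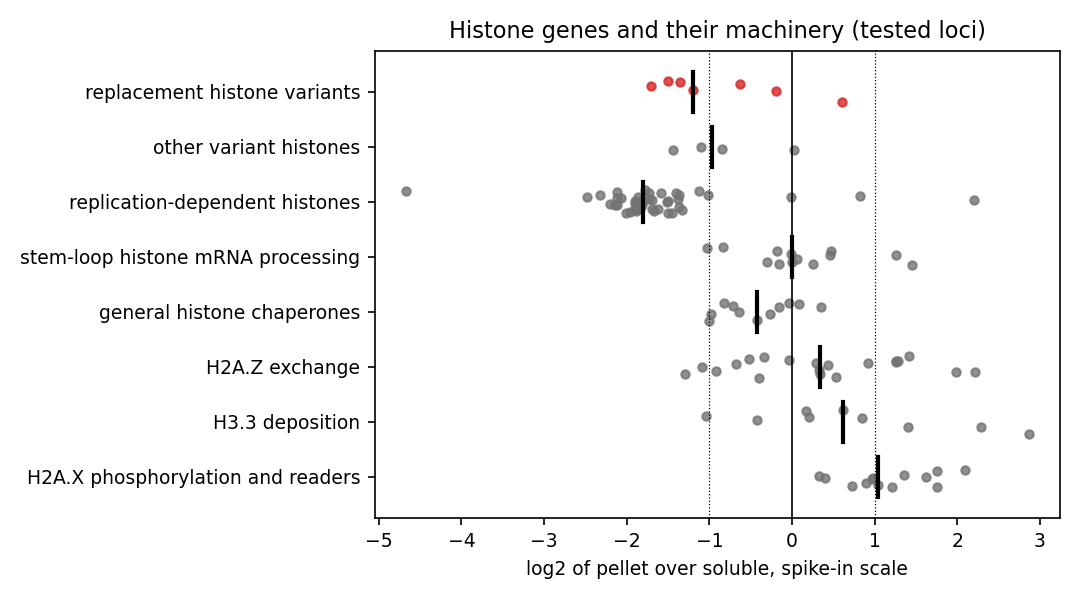
Log2 of pellet over soluble on the spike-in scale (x) for tested genes of each list (y), with black bars at the medians and dotted lines at 2-fold; the vertical spread of points is arbitrary. The replacement variants (median -1.19) lie between the replication-dependent histones (-1.80) and the lists of H2A.Z exchange (0.34), H3.3 deposition (0.62) and H2A.X genes (1.05).

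Gene span moved with the fold across protein-coding loci, and its part in the differences between these genes was not tested. Spearman's rho between RefSeq span and log2 fold was 0.46 across 11184 protein-coding loci with a span (genes are not independent replicates, and all values share the same pooled libraries). The median log2 fold went from -0.52 in the shortest 2237 spans (374 to 8550 bp), where 30.8% were at least 2-fold lower, to 0.88 in the longest 2237. H2afx (1363 bp), H1f0 (2293 bp), H2afz (2436 bp) and H3f3b (4079 bp) are all in that group, yet they ranged from -1.71 to -0.20. H3f3a (11046 bp) and H2afv (17286 bp) are in the next of 5 such groups (8553 to 17974 bp), with a median of -0.04. H2afy (62005 bp) is among spans of 33069 to 70289 bp, with a median of 0.51. Over the 7 genes, which are too few to show a trend and are not replicates, rho between span and log2 fold was 0.54. Within the H3.3 pair the longer gene, H3f3a, had the lower fold. The level also moved with the fold: rho between soluble FPKM and log2 fold was -0.44 across the 11397 tested protein-coding loci, where soluble FPKM is itself part of the fold.

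Of the 7 genes, 3 share their coordinates in the table with loci of another type, since a locus spans all genes assembled together. H3f3a shares them with the antisense RNA H3f3aos (0.921 soluble and 2.07 pellet FPKM) and the noncoding Gm17275. H1f0 shares them with the antisense RP23-414K1.8 (0.741 and 0.225 FPKM) and H2afy with the antisense RP24-320I19.2 (0.00186 and 0.00274 FPKM). The libraries were strand-specific, but no source used here says whether counting used the strand. Each of these loci was below the histone gene it overlaps in both fractions, and H3f3aos in the pellet came closest, at 2.07 beside 19.4 FPKM. Of the 4 genes with coordinates of their own, 3 were at least 2-fold lower in the pellet and 0 higher. Among all tested loci 10.5% were lower and 31.9% higher. Shared coordinates were common, at 6055 of the 13917 tested loci.

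The protein-coding locus nearest to each gene in log2 soluble and log2 pellet FPKM was found over the 2 fractions. H2afz was nearest to Myl7, the atrial myosin light chain (1119 soluble and 131.3 pellet FPKM; distance 0.17), H2afx to Ppia, the peptidyl-prolyl isomerase cyclophilin A (distance 0.23), and H3f3a to Rps24, a ribosomal protein gene (0.06). H3f3b was nearest to Col3a1, a collagen gene (340.5 and 87.0 FPKM; 0.01), H1f0 to Tpm2, a tropomyosin gene (0.01), H2afv to Skp1a, of an E3 ubiquitin ligase (0.06), and H2afy to Stx4a, a syntaxin (0.03).

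The label of the cells was compared with marker genes. Of 12 cardiomyocyte markers, 10 were listed and all 10 passed the level filter, at 1.63 to 1119 FPKM in the soluble fraction. The lowest was Nppa, the gene of atrial natriuretic peptide, at 1.63, and Actn2 had 4.67. The highest was Myl7 at 1119, and Tnnt2, cardiac troponin T, had 1022. Endothelial markers summed to 7.07 FPKM and immune markers to 0.896, with Cdh5 at 4.98e-05 and Ptprc at 0.0110. Fibroblast markers summed to 346.9 FPKM, of which Col3a1 was 340.5, while Dcn had 1.74. Smooth muscle markers, some of which cardiomyocytes share, summed to 1940 FPKM, with Acta2 at 1539 and Myh11 at 0.867.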

How the data were processed

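The authors deposited 1 table for the series, with 1 FPKM value per locus and fraction, per the file headers. Further deposited columns give a rescaled pellet signal, its sum with soluble FPKM, the ratio of rescaled pellet to soluble, and the log10 of sum and ratio. The submitters' processing notes name HISAT2, SAMtools, Cufflinks, bedtools, Cuffdiff and mm10, and no source used here gives versions or settings.

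Of 30687 lines, 1945 repeated an identifier and were dropped. Coordinates are 1-based, in mm10. Those given with each gene are of its listed locus, which can be wider than the RefSeq gene. Soluble FPKM was regressed on pellet FPKM over 82 spike-ins by least squares with no intercept, and the slope is the spike-in factor. The folds equal the deposited ratio to within rounding. No pseudocount was added. With pooled values, no limma fit, planned for values per library, was run. Functions were tested on simulated data. All 7 genes matched RefSeq by symbol or synonym, and 6 had a promoter window.

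The genes, lists and alternatives were chosen with earlier results of these data known. Named are all 7 genes, up to 2 genes per list at least 2-fold different each way, and each gene's nearest locus. Hira, Srcap, Slbp, H2afy2, Cenpa and H3f3c, and the family sums, were added after their values were seen. Alternatives were the scale, spike-in factor, pseudocounts, level filters and fold thresholds. Python 3.11.15, pandas 2.3.3, NumPy 2.4.6, SciPy 1.17.1 and matplotlib 3.10.9 were used.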

Additional observations from a re-analysis of the deposited data

How the results depend on the processing

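On the FPKM scale 7 genes were at least 2-fold lower in the pellet in place of 4, with a median of -2.95 in place of -1.19, beside 61.2% of all tested loci lower and 9.66% higher. H2afy there turned from 0.61 to -1.15. At 1.5-fold, 5 genes were lower and 1 higher (H1f0 and H2afy joined), beside 19.1% of all tested loci lower and 43.9% higher. At 3-fold, 1 gene, H2afx, was lower, beside 3.26% of loci lower and 19.8% higher. With no level filter 49.8% of loci were higher. The median spike-in factor shifts every fold alike, by 0.05, and the filters cannot change a fold. Under both pseudocounts the 14 recomputed folds of the 7 genes moved by at most 0.0147. Leaving out the 3 genes with shared coordinates, chosen after seeing the data, gave 3 lower, 0 higher and a median of -1.27. At the main settings 10.5% of all tested loci were lower and 31.9% higher. No paired analysis was possible because the table holds 1 pooled value per fraction, and for the same reason no replicate could be left out. Depth is unknown, so no interval based on counts is given.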
